A study of Mus musculus with 15 samples.

Results

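The 5 tumours with the highest and the 5 with the lowest expression of 4 genes of dividing cells were compared among 15 spontaneous mammary tumours of MMTV-PyMT mice. These mice carry the polyoma middle T oncogene behind the mouse mammary tumour virus promoter, which drives it mainly in mammary epithelium. The mice were 20 weeks old; 8 tumours are labelled B6 (C57BL/6) and 7 Wsh. Wsh usually denotes the W-sh allele of Kit, with which adult mice lack mast cells. Total RNA of whole tumours was measured, 1 tumour per 1-colour Agilent array, so every value mixes tumour cells with the stroma, fat, muscle and leukocytes in the piece. Since no label tells which mouse each tumour was taken from, a p-value here covers only the spread among these 15 arrays, which need not be the spread among mice.

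The groups were chosen by the measured values of Mki67, Top2a, Bub1 and Plk1, whose mean, the index, ranked the arrays. Signals are given as log2 after the array's own 75th percentile was set to 0. Mki67 encodes the Ki-67 antigen of cycling cells, Top2a the topoisomerase that untangles sister chromatids, Bub1 a kinase of the spindle checkpoint, and Plk1 a kinase that drives entry into and passage through mitosis. The array's probes lie at chr7:142881591-142881650 for Mki67, chr11:98854651-98854710 for Top2a, chr2:127626988-127627047 for Bub1 and chr7:129313220-129313279 for Plk1 (build mm9). All 4 probes were well above background on 15 of 15 arrays, so none of these tumours lacked the markers, and high and low are relative terms here.

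The 5 highest arrays had index values of 2.25 (Wsh 6), 2.09 (Wsh 7), 2.04 (B6 2), 1.83 (B6 3) and 1.81 (Wsh 5). The 5 lowest had 1.41 (B6 5), 1.41 (Wsh 2), 1.37 (Wsh 4), 1.32 (Wsh 1) and 1.26 (B6 7). The arrays between them had 1.81 (B6 1), 1.68 (B6 4), 1.497 (Wsh 3), 1.47 (B6 8) and 1.43 (B6 6). The values ran without a gap. The lowest member of the high group and the array next to it were at 1.813 and 1.807, and the highest member of the low group and its neighbour at 1.412 and 1.430. The group means were 2.004 ± 0.19 and 1.35 ± 0.06 (SD, n = 5 each), a difference of 0.65 or 1.57-fold, and the whole range over 15 arrays was 1.98-fold. These values chose the groups and carry no test.

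**Figure D1:**
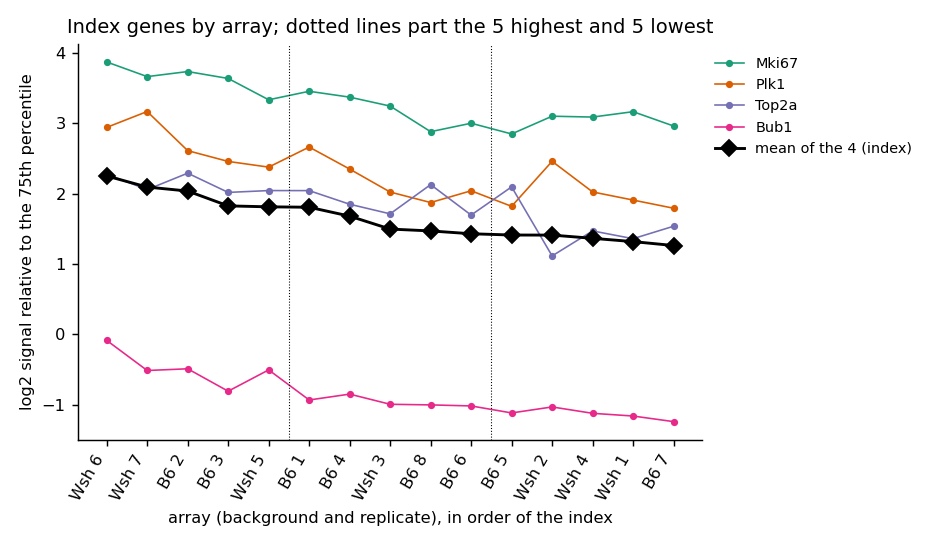
Log2 signal relative to the array's 75th percentile (vertical axis) of Mki67, Plk1, Top2a, Bub1 and their mean on each of 15 arrays (horizontal axis, in order of the mean). The mean falls from 2.25 to 1.26 with no gap at either dotted line, and Top2a of B6 5 and Plk1 of Wsh 2 lie within the range of the high group.

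The 4 genes did not rank the arrays alike. Mki67 ran from 3.33 to 3.87 in the high group and from 2.85 to 3.16 in the low group, and Bub1 from -0.81 to -0.08 and from -1.24 to -1.03, with no overlap. Top2a reached 2.10 on B6 5, within the 2.02 to 2.29 of the high group, and was 1.12 on Wsh 2. Plk1 was 2.46 on Wsh 2, within the 2.38 to 3.17 of the high group. The other 3 probes of Top2a had high minus low differences of 0.45, 0.50 and 0.69, against 0.62 for the probe used. The other probe of Bub1 had 0.34 but was well above background on only 4 arrays.

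Membership depended on the processing. With arrays scaled by their median, the same 5 arrays were highest and 4 of the 5 lowest were the same. With normexp background correction, with quantile normalization and with the authors' deposited log2 values, 4 of 5 were the same in each group. B6 1 then entered the high group, in place of Wsh 5 with normexp and of B6 3 in the others, and B6 6 took the place of Wsh 2 in the low group.

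The slide went with both background and level in the 10 arrays. The 2 B6 tumours of the high group and the 3 Wsh tumours of the low group were all on slide 1, and the 3 Wsh tumours of the high group and the 2 B6 tumours of the low group were all on slide 2. The slide term and the interaction of level and background were therefore the same term, and they cannot be told apart. Over 15 arrays the index was 1.68 ± 0.38 (SD, n = 7) in Wsh and 1.62 ± 0.26 (SD, n = 8) in B6, a difference of 0.06, less than either SD. On slide 1 the 4 B6 values (1.68 to 2.04) lay above the 4 Wsh values (1.32 to 1.497), a difference of -0.44. On slide 2 the 3 Wsh values (1.81 to 2.25) lay above the 4 B6 values (1.26 to 1.47), a difference of 0.66. The differences on the slides were 1.098 apart. Since the index chose the groups, and the slides were looked at after it was known, these values are a description with no test.

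**Figure D2:**
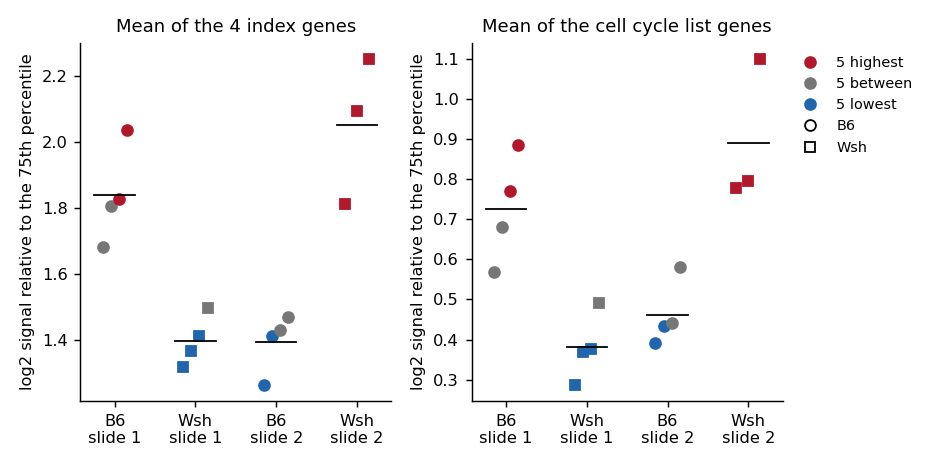
Mean of the 4 index genes (left) and of 126 genes of cell cycle lists outside the index (right), in log2 signal relative to the 75th percentile, for each array by background and slide; bars are group means and colours the index groups. On slide 1 the B6 arrays are above the Wsh arrays in both panels, and on slide 2 the Wsh arrays are above the B6 arrays.

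Cells that divide switch on their cell cycle genes in waves. Genes of DNA replication rise before and during S phase under the E2F factors. Genes of the mitotic spindle rise in G2 and M under B-Myb, FoxM1 and the MuvB complex. Cells outside the cycle keep both waves low, so in a piece of tissue the summed level of these genes follows the number of cells in cycle. In these bulk samples, fewer cycling cells and less such RNA per cell cannot be told apart.

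Outside the 4 index genes, no gene passed the test between the 2 groups. In the limma fit with background as covariate, 22143 genes were tested and 0 had an adjusted p under 0.05 (0%), the lowest being 0.161, shared by 24 genes. At an unadjusted p under 0.05 there were 1969 genes (8.89%), 1408 higher in the high group (6.36%) and 561 lower (2.53%). Their number was 1295 without B6 3, 1214 without Wsh 5, 2993 without B6 5 and 768 without the 3 arrays that held skeletal muscle transcripts. The groups did not overlap for 501 genes that were higher (2.26%) and 68 that were lower (0.307%). The median difference over all genes was 0.04, and 56.1% of genes were above 0. Scaling by the median of each array moved that median to 0.17 and the unadjusted counts to 2196 higher and 237 lower, so small differences below are relative to these medians.

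When the index was used as a slope over all 15 arrays in place of the groups, 99 of 22143 genes were higher with the index at an adjusted p under 0.05 (0.447%) and 0 were lower (0%; 275 at an unadjusted p under 0.05). Slopes below are log2 per log2 unit of the index. Of the 99 genes, 42 were in the fixed lists. The count fell most when Wsh 6 was left out, and less for the other arrays. It was 12 without Wsh 6, 47 without Wsh 4, 49 without B6 2, 54 without Wsh 1, 60 without Wsh 5 and 61 without Wsh 3, and between 67 and 84 without any other array; without Wsh 7, 1 gene was also lower. It was 0 (lowest adjusted p 0.601) without the 5 arrays that held skeletal muscle transcripts. Leaving out 5 other arrays was not tested.

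Genes of 8 cell cycle lists, 126 in all and all measured, were almost uniformly higher in the high group. The difference was positive for 124 of 126, with a median of 0.53 (1.45-fold) against 0.04 over all genes, and ran from -0.16 to 1.02. At an unadjusted p under 0.05, 104 (82.5%) were higher and 0 lower, beside 6.36% and 2.53% of all genes. The groups did not overlap for 62 (49.2%), beside 2.26%, and 41 (32.5%) passed the threshold for the slope, beside 0.447%. The fit did not use the arrays between the groups, but the same index placed them there. Their mean lay between the 2 group means for 116 of the 126 genes, and the share over all genes was not counted. These genes share their regulation with the index genes and the lists were chosen with this in view, so their common direction is a description of what the index ranks. Without Wsh 1, Wsh 4 and Wsh 5, the arrays of the 10 with skeletal muscle transcripts, 124 were still positive with a median of 0.48. Of the 126, 61 were then higher at an unadjusted p under 0.05, beside 463 of all 22143 genes. Within slide 1 alone the median was 0.49 with 67 such genes, beside 1025 of all 22132. Within slide 2 alone it was 0.49 with 51, beside 637 of all 22140. On slide 1 the high arrays were all B6 and the low arrays all Wsh, and on slide 2 the reverse. These 2 fits therefore cannot tell level from background.

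**Figure D3:**
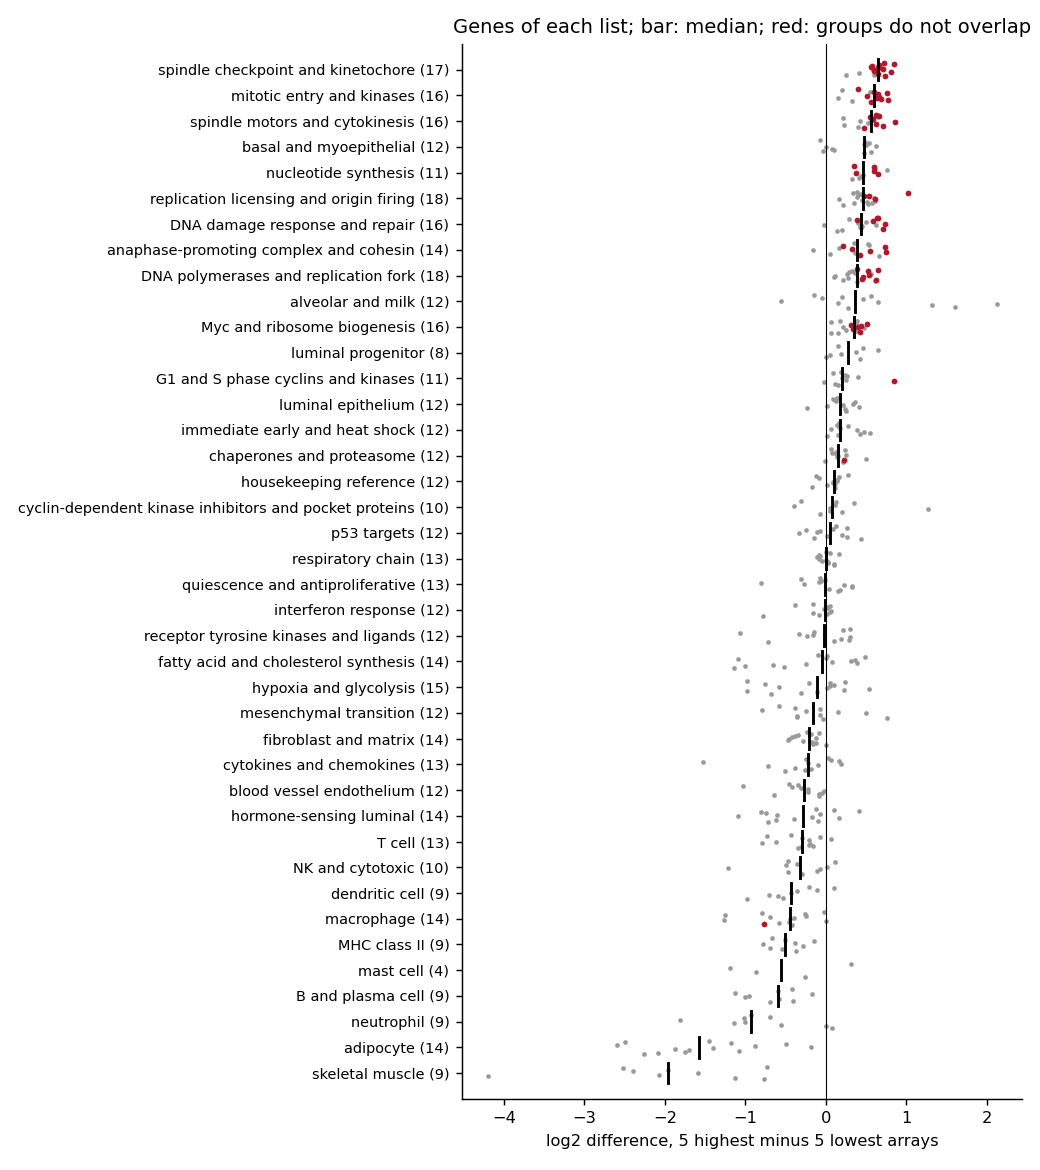
Log2 difference between the 5 highest and 5 lowest arrays (horizontal axis) of each measured gene of 40 lists (rows, with the number of genes), in order of the list's median (bar); red points are genes whose groups do not overlap. The spindle checkpoint list is at the top with a median of 0.65 and the skeletal muscle list at the bottom with -1.97.

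Per-array values below are given in the order of the index, for the high group Wsh 6, Wsh 7, B6 2, B6 3 and Wsh 5, and for the low group B6 5, Wsh 2, Wsh 4, Wsh 1 and B6 7. Differences are those of the limma fit with their standard error (SE), and adjusted p are Benjamini-Hochberg over all 22143 genes. Counts in each list stand beside the shares over all genes, 6.36% higher and 2.53% lower at an unadjusted p under 0.05. Without overlap 2.26% of all genes were higher and 0.307% lower.

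The kinases and cyclins of mitotic entry were higher in the high group for 16 of 16 genes, with a median difference of 0.60. Of these, 13 had an unadjusted p under 0.05, 11 did not overlap and 9 passed the threshold for the slope. Ccnb1, the B-type cyclin that activates Cdk1 for mitosis, was at 1.58, 1.23, 1.43, 1.61 and 1.25 in the high group and 0.57, 0.84, 0.71, 0.81 and 0.77 in the low group. Every high array was above every low array, by 1.6-fold in the fit (difference 0.68, SE 0.12, limma adjusted p = 0.163), and Ccnb1 rose with the index over 15 arrays (slope 0.97, SE 0.16, limma adjusted p = 0.0132). Cdc25c, the phosphatase that removes the inhibitory phosphates of Cdk1, ran from -0.33 to -0.04 against -0.97 to -0.71, with a slope of 1.003 (limma adjusted p = 0.00527). Mastl, the Greatwall kinase that restrains the phosphatase opposing Cdk1, was at -2.09, -2.23, -2.34, -2.31 and -2.34 and -2.88, -2.68, -2.99, -2.98 and -3.05. Its groups did not overlap and stood 0.65 apart (SE 0.10, limma adjusted p = 0.161), and its slope of 0.93 passed (limma adjusted p = 0.00385). Ccnb2, the other B-type cyclin, differed by 0.63 (SE 0.12) without overlap.

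The spindle checkpoint and kinetochore list had the highest median difference of the 40, 0.65, and all 17 of its genes had an unadjusted p under 0.05. The groups did not overlap for 14 of 17. Cenpe, the kinesin that moves chromosomes to the spindle equator, was at 2.34, 1.94, 1.98, 2.15 and 2.06 in the high group and 1.11, 1.23, 1.42, 1.41 and 1.24 in the low group. The groups were far apart, with 3 of the arrays between them in the gap, and the difference was 0.81 (SE 0.11, 1.76-fold, limma adjusted p = 0.161). Its slope of 0.98 missed the threshold (limma adjusted p = 0.0533), with B6 1 and B6 4 as low as 1.28 and 1.40 at index values of 1.81 and 1.68. Incenp, the scaffold that carries Aurora B to the centromere, was at 3.33, 3.16, 3.103, 3.05 and 3.28 and 2.505, 2.44, 2.63, 2.700 and 2.65, with no overlap and little spread inside either group. Knl1, the kinetochore platform to which Bub1 binds, differed by 0.72 (SE 0.13) and rose with the index (slope 0.97, limma adjusted p = 0.0242). Cenpf, a large coiled-coil protein of the outer kinetochore, was at 1.59, 1.296, 1.15, 1.07 and 1.22 against 0.65, 0.57, 0.70, 0.67 and 0.73, and also rose with the index (slope 0.86, limma adjusted p = 0.0207).

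All 16 genes of the spindle motors and cytokinesis list were higher in the high group, with a median of 0.57. Of them, 12 had an unadjusted p under 0.05, 9 did not overlap and 6 passed the threshold for the slope. Kif20a, the kinesin of the central spindle, had the largest difference in this list, 0.86 (SE 0.16, 1.82-fold, limma adjusted p = 0.177). Its values were 1.59, 0.90, 1.197, 1.04 and 1.17 in the high group and 0.28, 0.01, 0.28, 0.53 and 0.49 in the low group, and Wsh 6 stood well above the other high arrays. Prc1, which bundles the microtubules of the central spindle, was at 2.22, 2.17, 2.11, 2.04 and 1.88 and 1.55, 1.302, 1.503, 1.36 and 1.37. Its slope of 1.001 passed (SE 0.12, limma adjusted p = 0.00216). Racgap1 and Ect2 form the switch that turns on RhoA for cleavage. Racgap1 ran from 0.58 to 1.24 in the high group and lay within 0.16 to 0.25 in the low group, and rose with the index (slope 1.01, limma adjusted p = 0.00146). Ect2 differed by 0.71 (SE 0.14), but its slope did not pass (limma adjusted p = 0.144).

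The list of the anaphase-promoting complex, cohesin and condensin was positive for 13 of 14 genes, with a lower median of 0.39. Of these, 10 had an unadjusted p under 0.05, 6 did not overlap and 5 passed the threshold for the slope. Its leading genes were condensin subunits, which compact chromosomes for mitosis. Ncapg was at 0.90, 0.57, 0.85, 0.66 and 0.61 in the high group and -0.09, -0.24, -0.07, 0.16 and 0.10 in the low group, a difference of 0.74 (SE 0.12, 1.67-fold, limma adjusted p = 0.161), and it rose with the index (slope 1.003, limma adjusted p = 0.0109). Ncaph differed by 0.55 and Smc2 by 0.74, both without overlap, and the slope of Ncaph passed (limma adjusted p = 0.00878) while that of Smc2 did not (0.0813). Cdc20, the activator of the anaphase-promoting complex, was at 3.34, 3.05, 2.76, 2.94 and 2.62 and 2.07, 2.78, 2.19, 2.23 and 2.099. Wsh 2 was the low array that crossed into the high range, as it did for Plk1, and the slope of Cdc20 passed (limma adjusted p = 0.0132).

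Replication licensing genes, which load and fire the origins, were higher for 18 of 18, with a median of 0.46. In this list 16 had an unadjusted p under 0.05, but only 4 did not overlap and 3 passed the threshold for the slope. Orc1, the largest subunit of the origin recognition complex, had the largest difference of all 126 genes, 1.02 (SE 0.18, 2.03-fold, limma adjusted p = 0.176). It was at -1.55, -2.03, -1.98, -1.16 and -1.85 in the high group and -2.75, -2.801, -3.103, -2.72 and -2.302 in the low group, and B6 3 stood highest, not Wsh 6. The slope of Orc1 did not pass (limma adjusted p = 0.265), and the arrays between the groups ran from -2.67 to -2.36. Cdc6, which loads the MCM helicase, was at -0.83, -0.65, -0.58, -0.66 and -1.11 and -0.98, -1.26, -1.45, -1.47 and -1.27, and B6 5 of the low group lay above Wsh 5 of the high group. Its slope passed (0.79, limma adjusted p = 0.0202). Mcm3, a subunit of that helicase, ran from 2.26 to 2.72 against 1.74 to 2.16, and Gmnn, which blocks a second loading, from 1.92 to 2.32 against 1.33 to 1.67. Neither slope passed (limma adjusted p = 0.107 and 0.0731).

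The DNA polymerases and fork factors were higher for 18 of 18, with a median of 0.39, 14 at an unadjusted p under 0.05, 7 without overlap and 3 past the threshold for the slope. Fen1, the flap nuclease of lagging strand synthesis, was at 3.55, 3.42, 3.25, 3.64 and 3.27 and 2.999, 2.66, 2.803, 2.71 and 2.87, a difference of 0.62 (SE 0.11, limma adjusted p = 0.176). Chaf1b, a subunit of the chromatin assembly factor, differed by 0.61 and rose with the index (slope 0.88, limma adjusted p = 0.0171). Lig1, the ligase that seals Okazaki fragments, and Pole, the leading strand polymerase, also rose with it (slopes 0.70 and 0.75, limma adjusted p = 0.0303 and 0.0494).

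All 11 nucleotide synthesis genes were higher with an unadjusted p under 0.05, at a median of 0.47. Ribonucleotide reductase, which makes deoxynucleotides, was measured through both subunits. Rrm1 was at 2.65, 2.48, 2.42, 2.22 and 2.31 in the high group and 2.01, 1.902, 1.75, 1.64 and 1.75 in the low group, without overlap, and rose with the index (slope 0.91, limma adjusted p = 0.00216). Rrm2, the subunit made only around S phase, was at 3.46, 2.54, 3.203, 3.37 and 2.71 and 2.24, 2.17, 2.204, 2.28 and 2.596. Wsh 7 lay below B6 7, although its index was the second highest, and the slope of Rrm2 did not pass (limma adjusted p = 0.072). Tyms and Dut, which supply and guard the thymidine pool, differed by 0.60 and 0.65, both without overlap.

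Of the DNA damage and repair genes, 15 of 16 were higher (median 0.44), 11 with an unadjusted p under 0.05, 6 without overlap and 5 past the threshold for the slope. Exo1, a nuclease of mismatch repair and end resection, was among the 24 genes at the lowest adjusted p. Its values were 0.85, 0.74, 0.63, 0.36 and 0.63 in the high group and -0.13, -0.10, -0.11, -0.13 and -0.02 in the low group, so the low arrays lay close together and all high arrays above them (difference 0.74, SE 0.11, 1.67-fold, limma adjusted p = 0.161). Exo1 rose with the index (slope 1.005, limma adjusted p = 0.00478), as did the Bloom helicase Blm (slope 0.95, limma adjusted p = 0.0177).

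**Figure D4:**
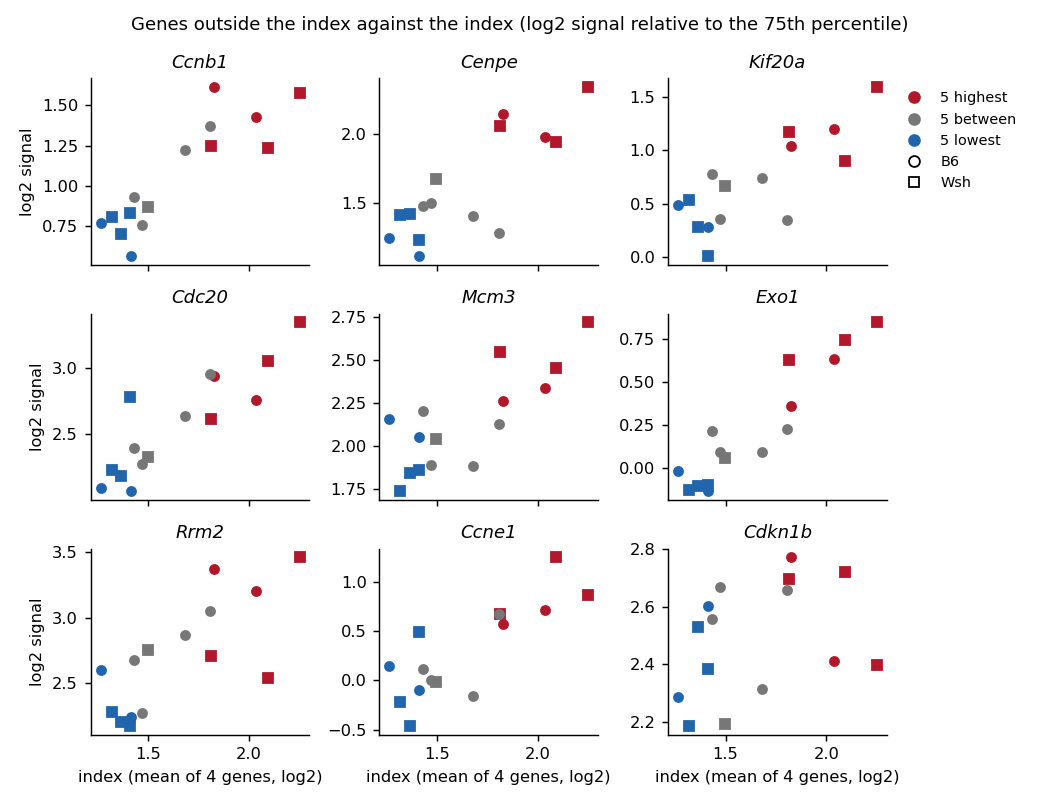
Log2 signal relative to the 75th percentile (vertical axes) of 9 genes outside the index against the index (horizontal axes), 1 point per array, coloured by index group and shaped by background. Ccnb1, Cenpe, Kif20a, Mcm3, Exo1 and Ccne1 of the 5 highest arrays lie above those of the 5 lowest; Cdc20, Rrm2 and Cdkn1b overlap.

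The promoters of 4 of these genes are shown because CCAAT boxes and the cell cycle homology element TTTGAA, known from promoters of mitotic genes, and E2F-type sites (TTCCCGC or TTGGCGC), known from replication genes, can be seen in them. In each of 6 lists (mitotic entry, checkpoint, motors, anaphase, licensing and polymerases) the named gene with the lowest p for the slope that had 1 promoter in the RefSeq table (GRCm38.p6), outside the chromosomes left out here, was taken, and 4 of the 6 held a motif. Those of Ncaph and Chaf1b held none and are not printed. Each is 200 bases 5′ to 3′, 170 before and 30 after the annotated start, with the motifs on either strand in capitals (ATTGG is CCAAT, and GCGGGAA is TTCCCGC, on the other strand). No motif overlapped another.
Mastl: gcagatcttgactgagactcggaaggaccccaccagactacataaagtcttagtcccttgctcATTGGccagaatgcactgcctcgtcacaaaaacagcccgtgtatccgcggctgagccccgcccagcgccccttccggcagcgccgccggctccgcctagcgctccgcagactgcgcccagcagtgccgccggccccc
Cenpf: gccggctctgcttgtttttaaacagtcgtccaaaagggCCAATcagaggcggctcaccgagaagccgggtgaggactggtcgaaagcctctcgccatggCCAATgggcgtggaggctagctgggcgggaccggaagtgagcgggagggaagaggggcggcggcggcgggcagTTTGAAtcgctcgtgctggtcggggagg
Racgap1: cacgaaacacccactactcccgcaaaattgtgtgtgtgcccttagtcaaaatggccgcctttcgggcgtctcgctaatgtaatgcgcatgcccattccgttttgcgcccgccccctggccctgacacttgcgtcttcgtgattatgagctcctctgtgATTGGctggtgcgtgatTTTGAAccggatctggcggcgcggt
Cdc6: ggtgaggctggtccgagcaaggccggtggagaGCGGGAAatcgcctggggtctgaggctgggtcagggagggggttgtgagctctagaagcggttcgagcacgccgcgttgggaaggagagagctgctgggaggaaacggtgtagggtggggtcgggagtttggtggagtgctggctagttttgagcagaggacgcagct

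The first 3 are on the minus strand, Mastl at chr2:23155995-23156194, Cenpf at chr1:189688057-189688256 and Racgap1 at chr15:99651627-99651826, and Cdc6 is on the plus strand at chr11:98907981-98908180. Mastl held 1 CCAAT. Cenpf held 2, which began 132 and 71 bases before the start, and a TTTGAA at the 3rd base after it. Racgap1 held 1 CCAAT, 12 bases before, and a TTTGAA at the 6th base after. Cdc6 held an E2F-type site 138 bases before the start. Of all 32851 promoters in the table, cut to the same 200 bases, 29% held a CCAAT, 11.7% a TTTGAA and 5% an E2F-type site. Only 99 of the 126 cell cycle genes (78.6%) had a promoter in the table, under the 80% needed, so shares over the lists are void and are not given.

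The G1 and S phase list differed less than the later lists, with 10 of 11 genes positive but a median of 0.20. Of these, 2 had an unadjusted p under 0.05, 1 did not overlap and 1 passed the threshold for the slope. That gene was Ccne1, cyclin E1, the partner of Cdk2 at the start of S phase. It was at 0.87, 1.25, 0.72, 0.57 and 0.67 in the high group and -0.10, 0.49, -0.47, -0.22 and 0.14 in the low group, 1.8-fold apart, and its slope was 1.27 (SE 0.25, limma adjusted p = 0.0447). Wsh 2 was again the highest of the low arrays. Cdk4, the kinase of D-type cyclins, ran from 4.11 to 4.59 against 3.58 to 4.23, and overlapped.

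The inhibitors of cyclin-dependent kinases and the pocket proteins had no common direction, with a median of 0.08, 7 of 10 positive and 0 at an unadjusted p under 0.05. Cdkn1b, the p27 inhibitor, had 2.397 to 2.77 in the high group and 2.18 to 2.604 in the low group. Cdkn2a, which encodes p16 and p19 and is induced by oncogenes, varied most of the 4 named genes of this list. It was at -0.39, 0.95, -1.34, -0.24 and 2.07 in the high group and 0.59, -0.26, -0.37, -2.16 and -3.09 in the low group, which overlapped widely (difference 1.27, SE 0.78, limma adjusted p = 0.628). Genes of quiescence and p53 targets had medians of -0.01 and 0.05.

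Ribosome biogenesis and Myc genes were positive for 16 of 16, with a median of 0.35, 9 at an unadjusted p under 0.05 and 6 without overlap, and 0 passed the threshold for the slope. Odc1, the polyamine enzyme and Myc target, was at 2.75, 2.65, 2.298, 2.43 and 2.596 and 1.74, 2.05, 2.14, 2.16 and 2.07 (difference 0.51, SE 0.10, limma adjusted p = 0.191). Nop56, Nop58 and Ncl, nucleolar factors of ribosomal RNA processing, differed by 0.40, 0.43 and 0.33, each without overlap. Chaperone and proteasome genes had a median of 0.15 with 3 of 12 higher at an unadjusted p under 0.05, beside 6.36% of all genes. The respiratory chain had a median of 0.00 with 0 of 13, and the housekeeping list 0.10 with 0 of 12.

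The 6 named genes with the largest positive moderated t were Parpbp, Cenpe, Ckap2, Exo1, Ticrr and Mns1, none of which passed the test between the groups (limma adjusted p = 0.161 each). Parpbp, a regulator of homologous recombination, was at -1.02, -1.32, -1.35, -1.43 and -1.16 in the high group and -2.05, -2.03, -1.995, -1.85 and -2.03 in the low group. Ticrr, which brings the helicase activator to origins, was at -0.63, -0.78, -0.93, -1.13 and -0.95 and -1.57, -1.64, -1.81, -1.68 and -1.69, and Ckap2, a spindle microtubule protein, ran from 1.42 to 1.77 against 0.68 to 1.15. Mns1, a protein of sperm flagella and motile cilia, ran from -0.38 to 0.07 against -0.92 to -0.69. All of these but Cenpe rose with the index, with slopes from 0.92 for Mns1 to 1.08 for Ticrr (limma adjusted p = 0.0221 and 0.00998).

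On the other side, the 6 named genes with the largest negative t did not pass either test. They were Dapk3, Fxyd2, Creld1, Slc43a3, Tyw3 and Id1, with limma adjusted p from 0.191 to 0.324 between the groups. Fxyd2, the gamma subunit that modulates the sodium pump, was at -0.69, 0.13, 0.45, 0.72 and -0.63 in the high group and 1.76, 0.28, 1.55, 1.86 and 1.95 in the low group. Wsh 2 was the low array that overlapped. Slc43a3, a purine transporter, was at -1.02, 0.10, -0.40, -0.94 and -0.52 and 0.51, 0.18, 0.39, 0.66 and 0.51, without overlap (2.01-fold lower in the high group). Id1, an inhibitor of differentiation factors, was at 0.21, 0.25, 0.06, 0.30 and 0.25 and 0.28, 1.42, 0.85, 1.24 and 0.82, with B6 5 among the values of the high group. Dapk3, Creld1 and Tyw3 differed by -0.54, -0.57 and -0.40, each without overlap.

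Genes of other tissues lay on the low side, with wide spread. All 9 measured skeletal muscle genes were lower in the high group (median -1.97), with 0 at an unadjusted p under 0.05. Myh4, a fast muscle myosin, was at -6.11, -7.02, -5.96, -7.21 and 1.99 in the high group and -5.74, -7.64, 6.302, 4.18 and -0.38 in the low group. It was high on Wsh 4, Wsh 1 and Wsh 5, and was well above background on 1 of 5 high and 4 of 5 low arrays. Myh4 thus passed the filter of at least 5 of the 10 arrays mainly through the low group. The common direction of the 9 genes may depend on that filter and carries no test. Ckm, Myh1 and Actn3 were well above background on 3, 3 and 4 of the 10 arrays and were not tested. The summed signal of the list, in multiples of the array's 75th percentile, ran from 1.16 to 24.8 in the high group and from 1.07 to 304 in the low group.

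All 14 adipocyte genes were also lower in the high group (median -1.57, 0 at an unadjusted p under 0.05). Car3, an abundant carbonic anhydrase of fat, was at 5.21, 3.34, 4.63, -0.40 and 3.61 and 3.24, 4.11, 5.32, 6.11 and 6.36, and B6 3 was far below the rest. Retn, the resistin gene of white fat, was at 4.08, 1.36, 3.66, -3.51 and 1.39 and 1.06, 2.54, 4.16, 5.76 and 5.92, with the same array lowest. The summed signal of the list ran from 23.4 to 292 in the high group and from 92.8 to 600.3 in the low group. With the adipocyte and muscle list means as covariates, 124 of the 126 cell cycle genes were positive with a median of 0.53. Of the 126, 95 were higher at an unadjusted p under 0.05, beside 984 of all 22143 genes. These covariates were measured on the same few arrays, and the part of fat and muscle in the cell cycle difference was not tested.

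**Figure D5:**
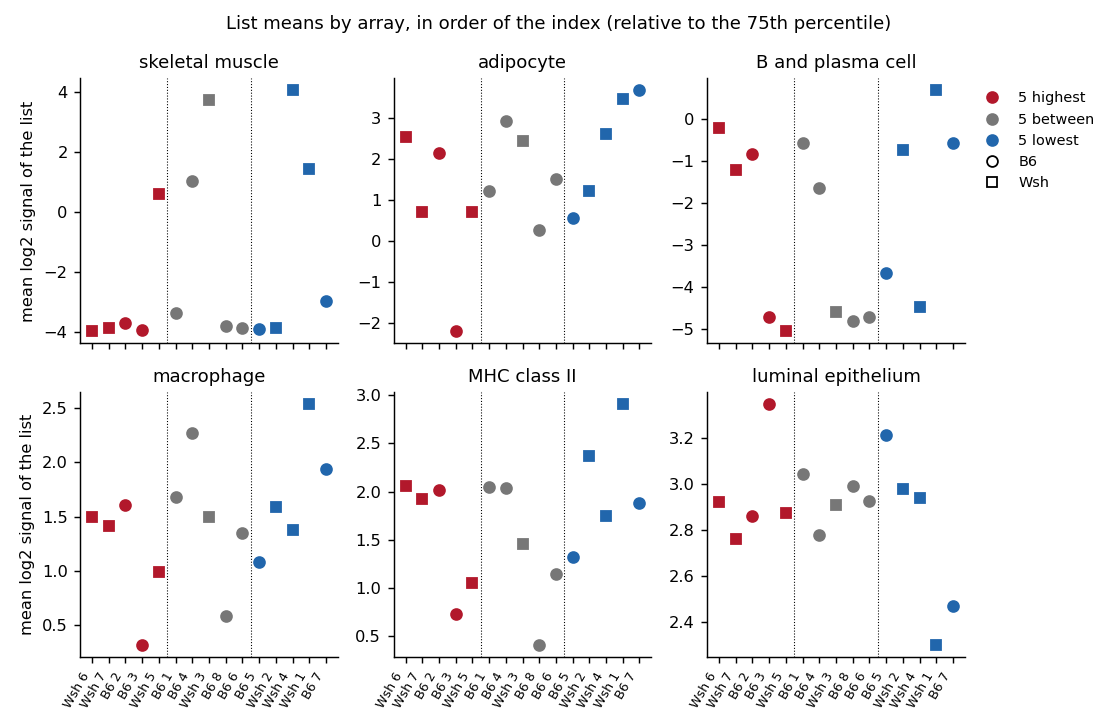
Mean log2 signal relative to the 75th percentile (vertical axes) of 6 lists on each of 15 arrays in order of the index (horizontal axis), coloured by index group and shaped by background. The skeletal muscle mean is above 0 on Wsh 5, B6 4, Wsh 3, Wsh 4 and Wsh 1, the adipocyte mean is lowest on B6 3, and the macrophage and class II means overlap between the groups.

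Leukocyte genes were mostly lower in the high group, and again no gene passed. Macrophage genes were lower for 13 of 14 (median -0.45), with 4 at an unadjusted p under 0.05 beside 2.53% of all genes. They were Fcgr1, an Fc receptor, and C1qa, C1qb and C1qc, the chains of complement C1q. C1qa was at 1.598, 1.65, 1.63, 0.38 and 1.39 in the high group and 1.86, 2.27, 1.81, 2.56 and 1.97 in the low group, which did not overlap, and B6 3 was far below the other high arrays (difference -0.76, SE 0.24, limma adjusted p = 0.439). The summed signal of this list was 62.3 to 120 against 80.2 to 179. All 9 class II genes were lower (median -0.51, 2 at an unadjusted p under 0.05 beside 2.53% of all genes, summed signal 94.8 to 138 against 105 to 182). On the arrays between the groups the class II list mean was 1.42, below the 1.56 of the high and 2.05 of the low group. The macrophage list mean there was 1.47, between 1.16 in the high and 1.70 in the low group. H2-Aa, a class II alpha chain, was at 1.75, 2.104, 1.84, 0.40 and 1.59 and 1.77, 2.17, 2.16, 3.04 and 2.02, which overlapped.

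B cell, T cell and neutrophil genes had medians of -0.59, -0.30 and -0.93, with 0 of 9, 0 of 13 and 1 of 9 at an unadjusted p under 0.05. The neutrophil gene was Ly6g, the surface marker of these cells, at -1.87, -1.45, -0.92, -1.03 and -2.595 and -0.998, -0.82, -0.67, -0.02 and 0.35. On the arrays between the groups these 3 list means were -3.27, -2.25 and -1.08, below both groups. They were -2.41, -1.64 and -0.78 in the high group and -1.75, -1.31 and 0.002 in the low group. These lists thus did not follow the order of the index. In the cytokine and chemokine list 4 of 13 genes were positive (median -0.23), and 1, the T cell attractant Cxcl9, was lower at an unadjusted p under 0.05 (difference -1.53, SE 0.48, limma adjusted p = 0.441). In the NK and cytotoxic list 2 of 10 were positive (median -0.32), and 1, the interferon gamma gene Ifng, was lower in the same way (difference -1.22, SE 0.43, limma adjusted p = 0.492). The neutrophil, cytokine and NK counts rest on 1 gene each, beside 2.53% of all genes that were lower at this threshold. The interferon response list had 6 of 12 positive, a median of -0.01 and 0 at an unadjusted p under 0.05. Ifng was well above background on 2 of 5 high and 4 of 5 low arrays. Of 13 mast cell genes 4 could be tested (median -0.56, 1 positive), and the mast cell protease gene Cpa3 was well above background on 3 of the 10 arrays and Tpsab1 on 0. The B cell list summed to 0.809 to 13.3 in the high group and 1.22 to 28.0 in the low group.

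Vessel genes were lower for 12 of 12 (median -0.27). Of them 1, Tek, the angiopoietin receptor, had an unadjusted p under 0.05, beside 2.53% of all genes lower. Vegfa, the vessel growth factor, was at 0.29, -0.65, 0.56, 0.39 and -0.57 and 0.75, 1.74, 0.15, 1.04 and 1.23 (difference -0.98, SE 0.33, limma adjusted p = 0.476), and Hk2, a glycolytic hexokinase, differed by -0.58. The hypoxia and glycolysis list as a whole had a median of -0.11, with 7 of 15 positive. The fits with tissue list means as covariates called none of these genes, and they do not measure the part of other tissue in these differences.

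Among the epithelial lists, luminal epithelium was positive for 11 of 12 genes (median 0.18, summed signal 231 to 325 against 184 to 313), with 0 at an unadjusted p under 0.05. With its mean as a covariate, 123 of the 126 cell cycle genes were positive. Of the 126, 100 were higher at an unadjusted p under 0.05, beside 1186 of all 22143 genes. This covariate too was measured on the same few arrays, and the part of epithelium was not tested. Basal genes had a median of 0.48. Of 12, 1, the laminin chain Lamb3, was higher at an unadjusted p under 0.05, beside 6.36% of all genes. Lamb3 was at 2.96, 2.93, 1.34, 2.303 and 2.83 and 1.49, 2.41, 2.47, 1.61 and 1.23, which overlapped. On slide 1 alone, where the high arrays were B6 and the low arrays Wsh, its difference was -0.34.

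Hormone-sensing genes had a median of -0.28, with 3 of 14 positive, among them Tfap2c at 0.41 and Gata3 at 0.16. The list members Ly6a and Prom1 were lower at an unadjusted p under 0.05, beside 2.53% of all genes. Ly6a was at 1.75, 2.24, 2.64, 2.59 and 0.99 and 2.56, 3.01, 2.94, 3.54 and 3.61, and B6 5 of the low group lay among the higher values of the high group. Esr1, the oestrogen receptor, was at -0.62, -0.83, 0.06, -0.30 and -0.81 and -0.28, -1.03, -0.05, 0.71 and 1.27 (difference -0.62, SE 0.36, limma adjusted p = 0.613). Its difference was 0.00 on slide 1 alone, where the high arrays were B6 and the low arrays Wsh. In the milk list (median 0.37), Lalba and Mfge8, genes of milk lactose and of the milk fat globule, differed by 0.65 and 0.46, both with overlap. Klf4, a growth-restraining factor, differed by -0.81 (SE 0.29, limma adjusted p = 0.513).

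The interaction of level and background, which is also the slide term, called 0 of 22143 genes (0%) in limma at an adjusted p under 0.05 (lowest 0.469), and 666 had an unadjusted p under 0.05 (3.01%). It called 6 genes without B6 2, 3 without B6 7, 2 without B6 5 and 1 without B6 3, fits in which 1 arm held a single array. The mean of the 126 cell cycle genes was 0.73 in B6 and 0.38 in Wsh on slide 1 (n = 4 each), and 0.46 in B6 (n = 4) and 0.89 in Wsh (n = 3) on slide 2. On each slide the ranges did not overlap, 0.57 to 0.88 against 0.29 to 0.49 and 0.39 to 0.58 against 0.78 to 1.099. In these 126 genes the order of the backgrounds on a slide was thus that of the index.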

How the data were processed

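Cy3-labelled RNA of 15 mouse mammary tumours was read with Agilent Feature Extraction 10.7.3.1, per the file headers and the submitters' processing notes. Per the file headers, the processed intensity is background-subtracted and detrended, with low values replaced by surrogates, and is not normalized between arrays. A deposited value table gives log2 values for these arrays, with column medians of 8.605 to 8.608. Within each array they rank the spots as the median signal minus background does, and the near-equal medians show a common centre. The submitters' processing notes name limma without its role, so the normalization that set this scale stays unknown.

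Of 62976 spots per array, 59305 were no controls. Of 56605 probes, 32994 were named by accession, 10224 by symbol and 520 by synonym in a RefSeq table (GRCm38), and 12867 kept the file's name. Probe positions are those of the files (mm9), and no exon annotation of that build was used. Between 55.7% and 73.4% of spots were well above background, the 75th percentile of the signal was 3328 to 6406, and arrays correlated between 0.925 and 0.990 over genes. Precision is limited by how many arrays there are.

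Values are log2 intensity minus the array's 75th percentile. Probes well above background on at least 5 of the 10 arrays were kept, the probe of highest mean per gene was used (22143 genes), and all probes of the 4 index genes were left out. limma 3.58.1 in R 4.3.3 was fitted with background as covariate, two-sided, with Benjamini-Hochberg adjustment over all genes and a threshold of 0.05. Named genes are the 6 largest t in each direction, since none passed, with a RefSeq symbol other than Gm, LOC or Rik names and above background on all arrays of a group; the 4 index genes; and up to 4 genes of largest absolute t in each list. An exact permutation test of the index between backgrounds was planned and run, but its p-values are not given, since the index chose the groups. The members and lists were chosen with earlier results of these data known. Other settings are given in the closing section. The fit was tested on simulated data.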

Additional observations from a re-analysis of the deposited data

Results flagged for a closer look

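The index differed between backgrounds in opposite directions on the slides, with the Wsh minus B6 differences 1.098 apart. On slide 1 every B6 array was above every Wsh array and on slide 2 every Wsh array above every B6 array. The index had chosen the groups, so the difference is given without a test.

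Single arrays lay far from the rest of their group in 14 of 170 groups looked at, those of the named genes and of the index. Chance flags about 1 in 20 groups, but here the same arrays recur, so the 14 were not set against chance. In the high group Wsh 6 was at 0.8792 for Ect2, 1.993 for Smc2 and 2.319 for Gmnn, above the nearest values of 0.3996, 1.609 and 2.018. B6 3 of the high group was at 0.3761 for C1qa and 0.2892 for C1qb, below 1.390 and 1.091. Wsh 5 of the high group was at 1.366 for Tnnt3, a fast muscle troponin, and 1.993 for Myh4, above -4.071 and -5.956.

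In the low group Wsh 4 was at 0.1567 for Racgap1, below 0.2259. Wsh 2 was at 2.780 for Cdc20 and 0.2794 for Fxyd2, against nearest values of 2.234 and 1.549. B6 7 was at 2.596 for Rrm2, against 2.282, and Wsh 1 at -1.849 for Parpbp, against -1.995. B6 5 was at 1.740 for Odc1 and 0.8426 for Klf4, below 2.055 and 2.217. For Racgap1 and Parpbp the whole low group spans a narrow range, so these are small distances.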

How the results depend on the processing

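No setting other than the slope over 15 arrays called a gene between the groups, among normexp, quantile normalization, the median, the deposited values, other filters, the mean of probes, slide as a block or alone, the replicate block, no covariate, array weights, trend and robust variance, tissue covariates and each array left out; the lowest adjusted p ran from 0.0864 (array weights) to 0.936 (without the arrays with muscle, chosen after seeing the data). Here and for the slope, the groups and the index stayed those of the main values, though another processing would have moved some arrays. The slope called 99 genes, 53 when scaled by the median, 22 with no filter, 0 without the 5 arrays with muscle, and 12 to 84 with each array left out. Of the named genes, 25 passed only there. The interaction called 0 to 6 genes with each array left out, where an arm of 1 is assumed to vary like the others. The index difference between backgrounds was -0.0354 when scaled by the median, -0.440 on slide 1 and 0.659 on slide 2, and -0.0327 to 0.123 with each array left out. Reversed values were Esr1 at 0.00322 and Lamb3 at -0.341 on slide 1 alone, and Tnnt3 at 1.54 on slide 2 alone. Myh4 was reversed at 0.130 with adipocyte and muscle covariates. Level and background were the same split within a slide. The cause of the reversals was not tested.

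The labels do not say whether equal replicate numbers pair B6 and Wsh samples. The deviations of equal numbers correlated between -0.247 and 0.223 over 7 numbers, 1 over 0.1, which cannot settle it. With a replicate block the index difference was 0.0419, 0 genes were called between the groups and 88 for the slope. Surrogate values limit dim genes such as Myh4 and Ifng.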

Other observations

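Beyond the fixed lists, 57 of the 99 genes that rose with the index over 15 arrays were in none of them. The 3 with the lowest adjusted p, chosen after their values were seen, were Depdc1b, a mitotic signalling protein (slope 1.15, SE 0.12), Kif22, the chromosome arm kinesin (1.12, SE 0.12), and Tacc3, a stabiliser of spindle microtubules (0.98, SE 0.11), each with a limma adjusted p of 0.00146. E2f8, an atypical E2F repressor made in S phase, had a slope of 1.13 (SE 0.13, limma adjusted p = 0.00188), and Skp2, the ubiquitin ligase subunit that marks p27 for breakdown, 0.95 (SE 0.15, limma adjusted p = 0.0114).

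Histone genes, grouped by name after their values were seen, were higher in the high group for 29 of 43 canonical genes (median 0.33), beside 56.1% of all genes. At an unadjusted p under 0.05, 20 were higher and 4 lower, beside 6.36% and 2.53% of all genes. Without overlap 10 were higher and 1 lower, beside 2.26% and 0.307% of all genes, and 0 passed the threshold for the slope. H2ac13 differed by 0.73 (SE 0.13) and the linker histone H1f5 by 0.70 (SE 0.12), each with a limma adjusted p of 0.163. All 11 Mup genes were lower in the high group (median -2.65), with 2 at an unadjusted p under 0.05 beside 2.53% of all genes. These genes encode urinary proteins and resemble each other so closely that probes may cross-hybridise.

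Xist, the transcript of the silenced X chromosome, was at -7.24 and -6.95 with its 2 probes on Wsh 4, a tumour of the low group, and below background there. On the other 14 arrays the probes were at -1.17 to -0.17 and at 2.81 to 4.17. The 4 probes of the Y-linked genes Ddx3y and Eif2s3y were well above background on 0 arrays.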
